A study of Rattus norvegicus with 10 samples.

Results

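The fibrillin genes *Fbn1* and *Fbn2* were followed through all 10 libraries of a count table from cultured rat soleus myoblasts. They are 2 of the 32622 genes in the table, and they were chosen by their measured fold changes in these same libraries, so their own levels and fold changes are given as a description, without a test. The study asked how mechanical unloading of a postural muscle changes the myoblasts later grown from it. The cells came from the soleus of 3-month-old male Wistar rats that were either kept as cage controls (Control) or held in hindlimb suspension, a model in which the hind legs bear no weight, for 1, 3, 7 or 14 days (HS1, HS3, HS7 and HS14). No genetic change, drug or transgene was used in any group. The cells of all 5 groups were enzymatically released and grown for some days in serum-rich medium before they were pre-plated. Pre-plating was meant to remove fibro-adipogenic progenitors, which stick to the dish sooner than satellite cells. The remaining cells were then grown briefly in serum-rich medium again. The unloading thus ended days before RNA was taken. Each group had 2 libraries of polyA RNA. The sources used here do not say whether these came from separate animals or cultures or from pooled cells. Every adjusted p below therefore weighs a difference between groups against the spread between 2 libraries of a group, which may be technical.

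Fibrillins are large, cysteine-rich glycoproteins of the extracellular matrix that assemble head to tail into microfibrils. Microfibrils surround elastin in elastic fibres and also stand alone in tendon, muscle connective tissue and the matrix around cells, where they bind the latent complexes of transforming growth factor beta (TGF-β) and several bone morphogenetic proteins (BMPs). *Fbn1* is used throughout life and is mutated in Marfan syndrome, while *Fbn2* is best known from developing and regenerating tissue and is mutated in congenital contractural arachnodactyly.

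In the RefSeq annotation of the GRCr8 assembly, *Fbn1* (ENSRNOG00000007302 in the count table) lies on the minus strand of chromosome 3 between 133007693 and 133204277, and *Fbn2* (ENSRNOG00000043219) on the minus strand of chromosome 18 between 53696197 and 53901992. Since the pair moved together across the groups, the sequences around their annotated starts are shown here, with the letters found by a motif search in capitals: the SMAD box CAGAC or its complement GTCTG, and the TEAD motif GGAATG or its complement CATTCC. For *Fbn2* these are the 250 bases just before the start, chr18:53901993-53902242. For *Fbn1*, whose start used here lies 887 bases inside the annotated extent of the gene, only the 30 bases around its single match are shown, chr3:133203561-133203590. Both are minus-strand sequences written 5′ to 3′.
Fbn2, 250 bases before the start: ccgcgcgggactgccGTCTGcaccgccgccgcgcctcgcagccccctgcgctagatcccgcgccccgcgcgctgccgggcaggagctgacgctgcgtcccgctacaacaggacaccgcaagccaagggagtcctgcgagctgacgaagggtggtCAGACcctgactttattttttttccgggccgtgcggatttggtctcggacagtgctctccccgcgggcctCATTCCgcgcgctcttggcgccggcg
Fbn1, 30 bases around its SMAD box: ccttggggacttGTCTGtgttgcaggacag

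Over windows of 250 bases before and 50 after each start, the *Fbn1* window held 1 SMAD box, which began at base -188 from the start, and the *Fbn2* window held 2, at -235 and -96. A SMAD box on either strand stood in 50.1% of all 33469 such windows, so its presence in both genes is common. The TEAD motif was found at -26 in *Fbn2* and not in the *Fbn1* window, against 14.2% of all windows. The E-box CANNTG (72.1% of windows), the GC box GGGCGG (33.1%), TATAAA (14.2%) and the AP-1 motif TGANTCA (7.33%) were found in neither window on either strand. What the windows shared most was base composition: 70.7% G or C for *Fbn1* and 69.3% for *Fbn2*, both past the 90th percentile of all windows (68.7%, median 51.7%). These matches describe letters and say nothing about binding.

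The libraries held 20200972 to 28175200 counts and 15602 to 15960 genes with at least 1 count, and levels below are CPM, counts brought to a common library size that was scaled by TMM factors of 0.967 to 1.03. A floor of 3 counts corresponded to 0.106 to 0.149 CPM. Among counts of 1 to 20, 69.4% to 72.0% were even numbers, as when both reads of a pair are counted, so intervals on counts are given from halved counts too. *Fbn1* was counted 4319 to 58966 times per library and *Fbn2* 41 to 1104 times, so counting error alone (95% interval) was at most 2.99% of the *Fbn1* value but up to 31.9% of the *Fbn2* value, or 45.5% at halved counts.

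*Fbn1* was lowest in myoblasts from muscle unloaded for 1 day, stood highest and above Control after 3 days, and was below Control again after 7 and 14 days. The Control libraries held 989 and 1027 CPM (1008 ± 26.6, SD, n = 2). The HS1 libraries held 201 and 188 CPM (194 ± 8.94), the lowest of the series. The HS3 libraries held 2361 and 2344 CPM (2352 ± 12.5), the highest. Group means were thus 19.3% of Control in HS1 and 233% in HS3, and the 2 libraries of each of these groups lay closer to each other than to any library of another group. The HS7 libraries held 743 and 637 CPM (690.0 ± 74.8), which is 68.4% of Control. The HS14 libraries held 343 and 307 CPM (325 ± 25.8), which is 32.2% of Control. No library of one group reached into the range of a neighbouring group in the order HS3, Control, HS7, HS14, HS1. How many of all genes have groups set apart in this way was not computed.

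*Fbn2* followed the same order of groups on a scale of far fewer counts. Its Control libraries held 8.78 and 9.03 CPM (8.90 ± 0.176, SD, n = 2). Its HS1 libraries held 1.80 and 1.79 CPM (1.79 ± 0.00858), from 44 and 41 counts. Its HS3 libraries held 33.3 and 43.9 CPM (38.6 ± 7.50), from 655 and 1104 counts. HS1 was at 20.1% of Control, close to the share seen for *Fbn1*, whereas HS3 was at 433%, well above it. The HS7 libraries held 7.90 and 6.35 CPM (7.13 ± 1.09, 80.0% of Control) and the HS14 libraries 3.42 and 2.86 CPM (3.14 ± 0.396, 35.3% of Control). The closest neighbours were Control and HS7. Their libraries did not overlap, but their means differed by 1.78 CPM with an SD of the difference of 1.10, and the counting interval of the lower Control library (7.66 to 10.0 CPM) overlapped that of the higher HS7 library (6.83 to 9.09 CPM). The same held for the lower HS14 library (2.22 to 3.63 CPM) and the higher HS1 library (1.31 to 2.41 CPM). For *Fbn2*, the counting intervals of the nearest libraries thus overlapped in these 2 pairs of neighbours, but not between HS3 and Control or between HS7 and HS14. Such overlap of single libraries does not show that 2 groups are equal, and their difference was not tested.

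**Figure D1:**
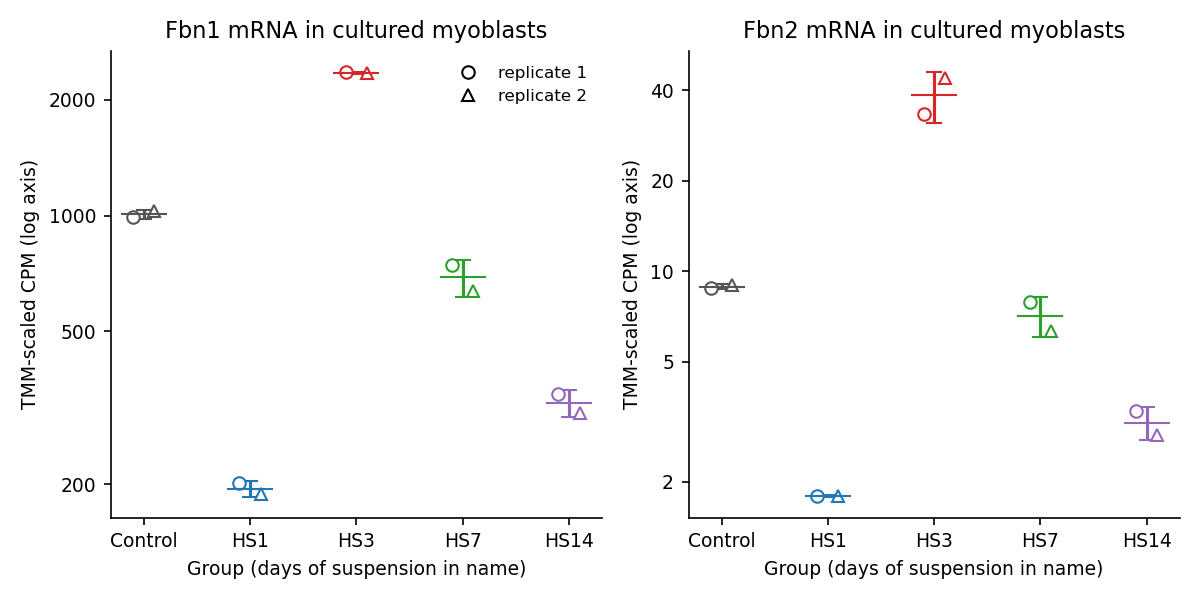
TMM-scaled CPM of *Fbn1* (left) and *Fbn2* (right) on log axes in the 5 groups, with replicate 1 as circles, replicate 2 as triangles, the group mean as a horizontal line and the SD (n = 2) as error bars. Both genes run from the lowest level in HS1 (means 194 and 1.79 CPM) to the highest in HS3 (2352 and 38.6 CPM), with Control, HS7 and HS14 between them in falling order.

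On the fitted log2 scale of edgeR, which used the 4 libraries of each comparison, the difference of *Fbn1* from Control was -2.37 (SE 0.05) for the HS1 cells, 1.22 (SE 0.06) for HS3, -0.54 (SE 0.07) for HS7 and -1.64 (SE 0.05) for HS14. For *Fbn2* the differences were -2.31 (SE 0.21), 2.11 (SE 0.14), -0.32 (SE 0.17) and -1.50 (SE 0.19) in the same order. These 4 comparisons share the Control libraries. Both genes passed the filter on low counts in all 7 comparisons made. The pair was chosen by its fold changes, so its ranks among all genes are a description. In HS1, 95 of 13013 genes had a lower fold change than *Fbn1* and 108 a lower one than *Fbn2*. In HS3, 45 of 13133 genes had a higher fold change than *Fbn2*, against 295 for *Fbn1*. In HS7 the pair stood less far out, with 1705 of 13164 genes below *Fbn1* and 2991 below *Fbn2*. In HS14, 246 of 13160 genes lay below *Fbn1* and 299 below *Fbn2*. The median log2 fold change of all genes was within 0.01 of 0 in every comparison.

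The steepest step between suspended groups was from 1 to 3 days. Between HS1 and HS3, *Fbn1* differed by 3.60 (SE 0.09) on the log2 scale and *Fbn2* by 4.43 (SE 0.18), and the ratio of the group means was 12.1 for *Fbn1* and 21.5 for *Fbn2*. From HS3 to HS7 *Fbn1* differed by -1.79 (SE 0.09) and *Fbn2* by -2.46 (SE 0.16). From HS7 to HS14 the values were -1.08 (SE 0.08) and -1.17 (SE 0.23), which lay within 1 SE of each other. In bulk libraries such as these, fewer cells that make fibrillin and less fibrillin mRNA per cell cannot be told apart.

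The balance of the 2 fibrillins was read from their counts within each library, which depends on neither depth nor scaling. It is a ratio of counts and not of molecules, because no transcript lengths were available to divide by. Control held 0.887 and 0.879 *Fbn2* counts per 100 *Fbn1* counts (0.883 ± 0.00588, SD, n = 2). HS1 held 0.896 and 0.949 (0.922 ± 0.0380), although both genes were near their lowest level there. HS7 held 1.06 and 0.997 (1.03 ± 0.0463) and HS14 held 0.997 and 0.933 (0.965 ± 0.0453). HS3 held 1.41 and 1.87 (1.64 ± 0.327), both above the other 8 libraries, which lay between 0.879 and 1.06. Its mean ratio was 1.86 times that of Control, a log2 difference of 0.88, against 0.22 in HS7, 0.13 in HS14 and 0.06 in HS1. From HS1 to HS3 the ratio differed by 0.82 and from HS3 to HS7 by -0.66 on the log2 scale.

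The 2 HS3 libraries themselves disagreed on this ratio. Their exact binomial 95% intervals were 1.30 to 1.52 and 1.76 to 1.99 *Fbn2* counts per 100 *Fbn1* counts, and at halved counts 1.26 to 1.57 and 1.72 to 2.04. These intervals cover counting error only and do not overlap, yet both lie above the point values of all 8 other libraries. At halved counts the intervals of the other libraries reached up to 1.43, in HS1. The interval of HS3 replicate 1 thus overlapped those of the HS1 and HS14 libraries and of replicate 1 of HS7. That of HS3 replicate 2 overlapped none of the 8. Overlap of intervals does not by itself show that 2 libraries share a ratio. The difference came from *Fbn2*: replicate 2 held 1.32 times the *Fbn2* CPM of replicate 1 but 0.993 times the *Fbn1* CPM, and the median of that quotient over all genes kept was 1.01. Several collagens also read higher in HS3 replicate 2, with quotients of 1.24 for *Col6a1*, 1.29 for *Col6a2* and 1.27 for *Col1a1*, whereas *Lrrc32* (0.997) and *Svep1* (1.00) did not. Their part in the *Fbn2* difference was not tested.

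**Figure D2:**
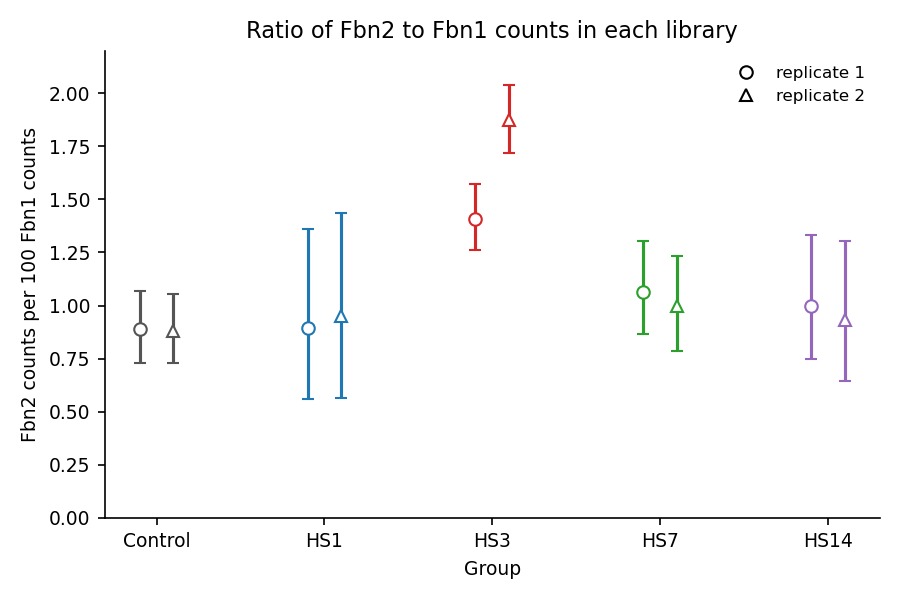
*Fbn2* counts per 100 *Fbn1* counts in each library, with replicate 1 as circles, replicate 2 as triangles and exact binomial 95% intervals at halved counts as error bars (counting error only). HS3 stands at 1.41 and 1.87, and the other 8 libraries lie between 0.879 and 1.06.

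Beside the fibrillins, 88 genes with a role in microfibrils or in the growth factor signalling they hold were listed, and 21 of them could be found. The count table carries identifiers without names, and names were available only for genes that the study itself had called in these samples. The 21 genes are therefore not independent evidence of any direction, and their shares of calls lie above those of all genes in part by construction. A gene passed where its adjusted p was below 0.01 (edgeR's quasi-likelihood test, Benjamini-Hochberg adjustment over all genes tested).

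In HS1, where the fibrillins were at 19.3% and 20.1% of Control, 17 of the 21 genes fell and 0 rose by edgeR, against 10.5% and 6.38% of all genes, and the median of the list was -1.59 on the log2 scale. At an unadjusted p below 0.05, 1 gene was higher by edgeR and 0 by DESeq2. In HS3, where the fibrillins were highest, 13 rose (7.00% of all genes did) and 2 fell (4.51%), with a median of 0.75. In HS7, 8 rose (16.6%) and 10 fell (16.2%), with a median of -0.61. In HS14, 4 rose (15.8%) and 14 fell (17.0%), with a median of -1.37. The list thus lay on the same side of Control as the fibrillins by its median at each time, with the most even split in HS7, where the fibrillins were also nearest to Control.

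Between suspended groups the list again lay on the side of the fibrillins. Of 20 genes tested, 17 rose (17.2% of all genes) and 1, *Bmp6*, fell (13.3%) from HS1 to HS3, with a median of 2.58. From HS3 to HS7, 7 of 21 rose (10.1%) and 13 fell (12.9%), with a median of -1.72. From HS7 to HS14, 1 of 20 rose (11.5%) and 12 fell (12.0%), with a median of -0.53. The single riser in that last step was *Dcn*. Its call was lost without either HS14 library, as were those of *Ltbp2* and *Smad6* among the 12 that fell. The calls of *Loxl3* and *Itgb6* were also lost without HS14 replicate 2.

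Among structural partners, *Mfap5*, a microfibril-associated glycoprotein that binds fibrillins, had the largest fold change in HS1 of those named. It held 59.2 to 59.9 CPM in the Control libraries, against 8.26 to 9.50 after 1 day, 143 to 171 after 3 days, 19.6 to 26.1 after 7 days and 9.23 to 9.89 after 14 days. It fell after 1 day (log2 fold change -2.75) and rose after 3 (1.39), the directions in which both fibrillins lay, and it fell after 7 days (-1.38) and 14 days (-2.65), where the *Fbn1* values were -0.54 and -1.64. *Fbln5*, a fibulin needed to assemble elastic fibres, fell after 1 day (-1.53), rose after 3 (1.27) and fell at the later times (-1.14 in HS7, -1.37 in HS14). *Bgn*, the small proteoglycan biglycan, gave -1.94, 1.14, -0.61 and -1.53 at the 4 times, and each of these changes passed.

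Other structural genes departed from the fibrillins. *Efemp1*, which encodes fibulin-3, fell in HS1 (-1.30) but gave 0.18 in HS3 (adjusted p = 0.595 by edgeR), and it fell in HS7 (-3.19) and HS14 (-4.02). *Dcn*, the small proteoglycan decorin, fell in HS1 (-2.11) and also in HS3 (-1.07), where the fibrillins were highest, and rose in HS7 (0.74) and HS14 (1.45).

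Enzymes and adaptors that build or modify microfibrils were found for 5 genes. *Loxl3*, a lysyl oxidase-like crosslinking enzyme, changed by -1.88, 1.14, -1.13 and -1.66 from the first to the last time, all of which passed. *Pcsk6*, a proprotein convertase, fell in HS1 (-2.27) and HS14 (-0.77), rose in HS3 (1.22) and gave -0.53 in HS7 (adjusted p = 0.0615 by edgeR). *Adamtsl3*, a secreted ADAMTS-like glycoprotein without a protease domain, fell in HS1 (-3.27) and rose in HS3 (1.32). *Adamtsl2*, which binds fibrillin-1, behaved otherwise: it rose in HS7 (1.71) and passed in no other comparison with Control. *Adamts17*, a secreted protease of the same family, also rose in HS7 (2.16) and passed in no other comparison with Control. It gave -0.29 in HS3 (adjusted p = 0.774) and -1.44 in HS1 (adjusted p = 0.142 by edgeR), at 0.123 to 0.660 CPM in those 2 groups.

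The growth factors that microfibrils can hold did not move as a block with the fibrillins. *Ltbp2*, a latent TGF-β binding protein family member that attaches to fibrillin-1, changed less than the fibrillins in HS1 (-0.43) and HS3 (0.41) and fell in HS7 (-1.32) and HS14 (-1.68). *Tgfb2*, a TGF-β ligand, gave -0.06 in HS1 (adjusted p = 0.440) and 0.03 in HS3 (adjusted p = 0.903 by edgeR), and rose in HS7 (1.54) and HS14 (0.35). *Bmp2*, a BMP ligand, fell in HS1 (-1.04), HS7 (-2.12) and HS14 (-1.79). Its mean was highest in HS3, where it gave 0.29 (adjusted p = 0.0745 by edgeR). *Bmp6*, another, ran opposite to the fibrillins by value, with 3.83 to 5.48 CPM in HS1 and 1.02 to 1.03 CPM in HS3 against 2.93 to 3.56 in Control. Its fall in HS3 (-1.66) passed with all libraries and was lost without Control replicate 2 (adjusted p = 0.0145 by edgeR).

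Of the integrin subunits, cell surface receptors for fibrillins and latent TGF-β, *Itgb3* fell in HS1 (-2.26) and HS14 (-1.03) and rose in HS3 (0.87). *Itga8* and *Itgb6* fell in HS1 (-1.59 and -0.73) but rose in HS7 (1.64 for both) and HS14 (1.07 and 0.36), where the fibrillins were below Control. In HS3, *Itga8* rose as the fibrillins did (0.52), a call lost without Control replicate 2, and *Itgb6* gave 0.24 (adjusted p = 0.127 by edgeR). Of the TGF-β response genes, *Smad6*, an inhibitory SMAD, and *Tgfbi*, a matrix protein induced by TGF-β, fell in HS1 (-1.65 and -2.98), HS7 (-0.81 and -0.95) and HS14 (-1.50 and -1.25) and rose in HS3 (0.88 and 0.75). *Postn*, the matrix protein periostin, rose in HS7 (1.92) as well as in HS3 (1.59). *Col1a1*, a chain of type I collagen, rose in HS3 (1.25) and slightly in HS7 (0.21) and fell in HS1 (-1.64) and HS14 (-1.56).

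The full order of the fibrillins by group mean, HS3, Control, HS7, HS14 and HS1 from high to low, recurred in 9 of the 21 genes: *Mfap5*, *Fbln5*, *Bgn*, *Loxl3*, *Pcsk6*, *Adamtsl3*, *Itgb3*, *Smad6* and *Tgfbi*. The share of all genes with this full order was not computed, so this count has no background and is a description only. The highest mean in HS3 and the lowest in HS1 were seen in 10 of the 21 (47.6%), against 1168 of 13684 genes kept over all libraries (8.54%) and 157 of the 769 with a name (20.4%). The last of these shares is the nearer background, since the 21 were named by the same route.

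**Figure D3:**
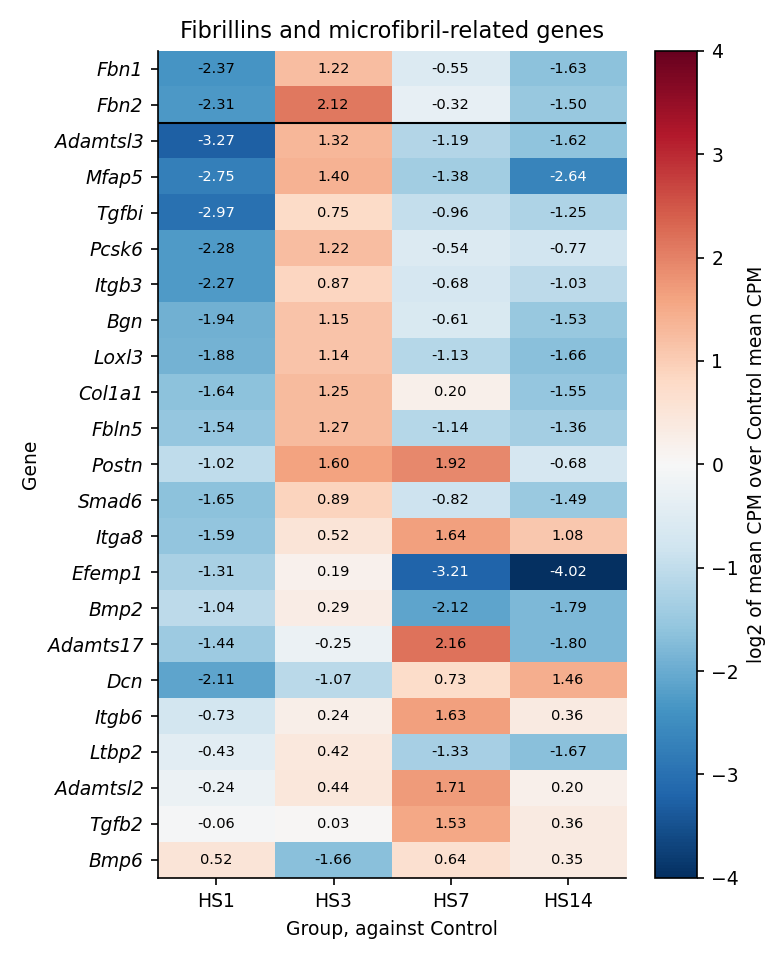
Log2 of each group's mean CPM over the Control mean CPM for both fibrillins (above the line) and the 21 listed genes with a name, ordered by the difference between HS3 and HS1, with blue below and red above Control. *Fbn1* and *Fbn2* stand at -2.37 and -2.31 in HS1 and at 1.22 and 2.12 in HS3, and the genes at the foot of the plot, such as *Tgfb2* and *Bmp6*, lack this contrast.

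Across the 10 libraries, log2 CPM of *Fbn1* and *Fbn2* had a Pearson r of 0.987, which stayed between 0.982 and 0.991 when any 1 library was left out. The 10 points are 5 pairs that share a group, so this r describes the step between groups more than the spread within them. *Fbn2* was not the gene closest to *Fbn1*: 19 of the other 13683 genes kept had a higher r with *Fbn1*, and 17 had a higher r with *Fbn2* than *Fbn1* did. These 2 counts depended on the measure: they were 2 and 11 with Spearman's rho, 67 and 59 with group means, and 97 and 74 without the HS7 libraries. An r above 0.9 was reached by 462 genes with *Fbn1* (3.38%) and by 479 with *Fbn2* (3.50%).

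Named genes whose mean log2 CPM reached 3 were ranked, 260 for *Fbn1* and 261 for *Fbn2* out of 13683 compared. Genes without a name could not enter, and the study had called all the named ones. Among those ranked, the 5 most like *Fbn1* were *Has2*, a hyaluronan synthase (r = 0.996), *Gpx3*, a secreted glutathione peroxidase (0.995), *Acvrl1*, a type I receptor for BMPs (0.995), *Col6a1*, a chain of type VI collagen (0.994), and *Bgn* (0.994). The 5 most like *Fbn2* were *Col6a2* (0.995), *Svep1*, a large extracellular adhesion protein (0.995), *Lrrc32*, a membrane anchor for latent TGF-β (0.992), *Col6a1* (0.990) and *Bgn* (0.989). Mean levels of *Has2* were 116 CPM for Control, 28.1 for HS1, 224 for HS3, 72.0 for HS7 and 41.5 for HS14. *Svep1* held 38.7, 9.97, 133, 33.1 and 16.0 CPM, groups in the same sequence. Both had the order of groups seen in the fibrillins. Which genes ranked first depended on the measure: with Spearman's rho 1 of each 5 stayed, with group means 4 of each 5, and without the HS7 libraries 2 for *Fbn1* and 3 for *Fbn2*.

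The fibrillins are made by fibroblasts as well as by muscle cells. The pre-plating was meant to remove fibro-adipogenic cells, and their markers were nevertheless read in every library, some moving with the fibrillins and some not. Of 12 markers of fibro-adipogenic cells or fibroblasts, 6 had a name (*Pdgfra*, *Dcn*, *Lum*, *Dpt*, *Col1a1* and *Thy1*), again only because the study had called them. Their summed level was 7332 to 7811 CPM for Control, 2401.71 to 2402.22 for HS1, 15477 to 19478 for HS3, 8274 to 8311 for HS7 and 2799.95 to 2989.93 for HS14. The log2 of this sum had an r of 0.973 with *Fbn1* and 0.971 with *Fbn2* over the 10 libraries. *Col1a1* made up most of it. Without *Col1a1* the sum was 795 to 804 CPM for Control, 228 to 229 for HS1, 1292 to 1419 for HS3, 465 to 556 for HS7 and 586 to 590.4 for HS14. Both sums were highest in HS3 and lowest in HS1, as the fibrillins were, but the whole sum stood above Control in HS7, and the sum without *Col1a1* was higher in HS14 than in HS7, unlike the fibrillins. None of these 6 markers was at 0 in any library. In HS1 all 6 fell (10.5% of all genes did), and in HS3 5 rose (7.00%) and 1, *Dcn*, fell (4.51%). In HS7 *Dcn*, *Lum* and *Col1a1* rose (3 of 6, against 16.6% of all genes) while *Pdgfra* and *Thy1* fell (2 of 6, against 16.2%), and in HS14 *Dcn* rose (1 of 6, against 15.8%) and 4 fell (17.0%). *Dcn* had an r of 0.03 with *Fbn1* and -0.03 with *Fbn2* and was highest in HS14 (439 to 454 CPM), and *Lum*, the proteoglycan lumican (r = 0.684 and 0.656), had its highest mean in HS7 (12.9 CPM, against 12.2 in HS3). *Pdgfra*, the receptor that defines fibro-adipogenic cells, held 147 and 149 CPM in the Control libraries. It held 30.4 and 31.5 CPM for HS1, 304 and 297 for HS3, 62.4 and 62.6 for HS7, and 59.0 and 57.3 for HS14. The part of these cells in the fibrillin levels was not tested.

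Markers of differentiating muscle, of which 8 of 10 had a name, summed to 1417 to 1487 CPM for Control, 889 to 1009 for HS1, 3109.98 to 3242 for HS3, 5513 to 9169 for HS7 and 1007 to 1088 for HS14. They peaked in HS7, where the fibrillins were below Control. *Myog*, the transcription factor myogenin, held 233 and 243 CPM for Control, 116 and 107 for HS1, 426 and 387 for HS3, 883 and 669 for HS7, and 182 and 153 for HS14. Myogenic identity was thus present in every library by *Myog*, while the satellite cell markers *Pax7*, *Myf5* and *Myod1* had no name in the sources used and were not analysed here.

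Markers of other cell types ranged widely in level. The 3 named endothelial markers of 6 summed to 0.736 to 9.37 CPM over all libraries (means of 0.803 in HS1, 2.81 in Control and 8.07 in HS3), with *Emcn* at 0 in 4 of them. *Lyz2*, the only named macrophage marker of 6, lay between 0.553 and 7.31 CPM. Of 7 pericyte or smooth muscle markers, 3 had a name and summed to a mean of 73.1 CPM in HS1, 199 in Control and 393 in HS3, and *Rgs5* was at 0 in 2 libraries. Most of the HS3 sum was *Pdgfrb*, a receptor of pericytes and of fibroblasts, at 348 and 382 CPM, with an r of 0.957 with *Fbn1* and 0.966 with *Fbn2*. The other named markers of this list did not run with the fibrillins. The r with *Fbn1* and *Fbn2* was 0.095 and 0.061 for *Notch3*, and -0.346 and -0.297 for *Rgs5*. The 3 named tendon markers of 5 summed to means of 80.5 CPM for Control, 8.27 for HS1, 127 for HS3, 35.3 for HS7 and 29.0 for HS14. *S100b*, the only named Schwann cell marker of 5, had a mean of 14.2 CPM in Control, 2.33 in HS1 and 33.9 in HS3. Among Control, HS1 and HS3, the endothelial, pericyte, tendon and differentiating muscle sums and *S100b* were all lowest in HS1 and highest in HS3, as the fibrillins were. In the later groups some departed from them. The endothelial sum had means of 6.33 CPM in HS7 and 8.87 in HS14, both above Control, and was highest in HS14. The pericyte sum had means of 239 CPM in HS7, above Control, and 168 in HS14, below it. The tendon sum and *S100b* (6.06 and 4.54 CPM) were below Control in both later groups, as the fibrillins were. The part of these cell types in the fibrillin levels was not tested.

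**Figure D4:**
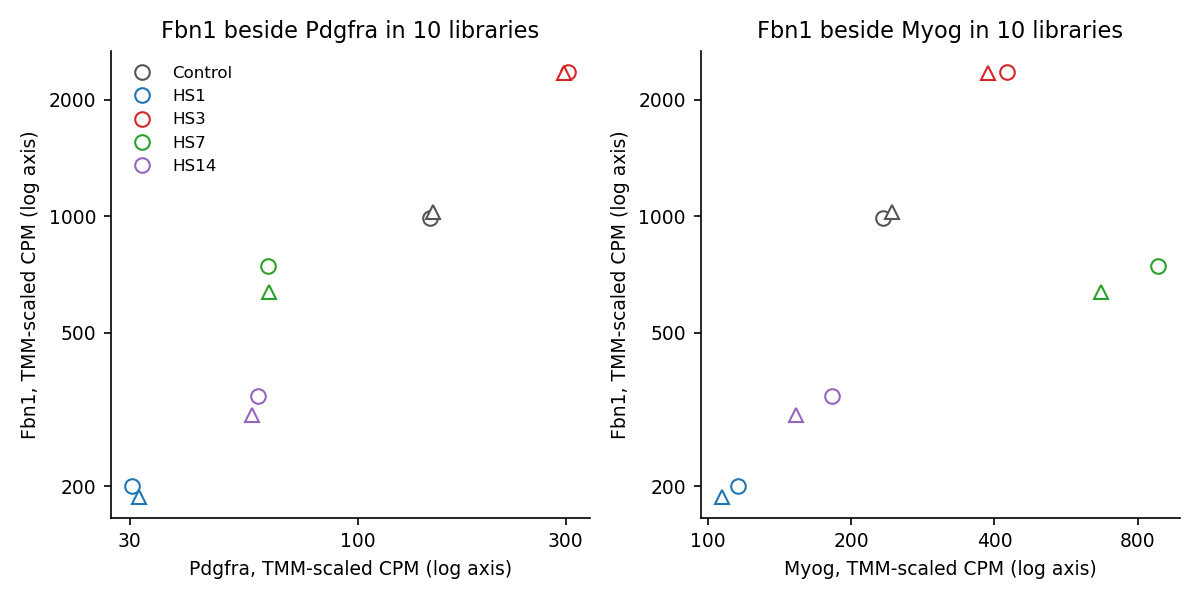
*Fbn1* level against the fibro-adipogenic marker *Pdgfra* (left) and the muscle differentiation marker *Myog* (right) in the 10 libraries, in TMM-scaled CPM on log axes, coloured by group with replicate 1 as circles and replicate 2 as triangles. *Fbn1* runs with *Pdgfra* from HS1 (30.4 and 31.5 CPM) to HS3 (304 and 297 CPM), while the HS7 libraries stand apart on the right with the highest *Myog* (883 and 669 CPM) and *Fbn1* below Control.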

How the data were processed

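The authors deposited raw counts per gene for 10 libraries (TruSeq Stranded mRNA). The labels name FastQC 0.11.9, STAR 2.7, featureCounts 1.6.4, DESeq2 and the build Rnor_6.0, whereas the methods of the study name mRatBN7.2, so no coordinate of the authors' build is printed. Samples were grouped by the labels. *Fbn1* and *Fbn2*, and all gene and marker lists, were chosen with earlier results of these data known. Gene names came from the study's own list of called genes, whose fold changes and p-values were not used, and the named genes are those of the lists plus the 5 most correlated with each fibrillin. Sequences came from RefSeq (GRCr8), in which both genes were matched by symbol.

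Each comparison used the 4 libraries of its 2 groups in edgeR 4.0.16 (R 4.3.3: filterByExpr, TMM, robust quasi-likelihood test); p-values were adjusted by Benjamini-Hochberg over the 13008 to 13164 genes kept, at a threshold of 0.01. Levels are CPM on TMM-scaled library sizes. Correlations used log2 CPM with a prior count of 2. The edgeR steps were tested on simulated counts. Python 3.11.15 with scipy 1.17.1 gave the exact binomial 95% intervals. Alternatives were RLE size factors, DESeq2 1.42.0, no filter on low counts, halved counts, 1 fit over all 10 libraries, the replicate number as a block, and each library left out in turn. Replicates of a group differed beyond sampling noise: chi-square per degree of freedom over genes was 3.61 to 12.2, or 1.85 to 6.44 at halved counts.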

Additional observations from a re-analysis of the deposited data

Results flagged for a closer look

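HS3 moved both fibrillins to the other side of Control from every other suspended group: each HS3 library was above both Control libraries and each library of HS1, HS7 and HS14 was below both. For *Fbn1* the change from Control in HS3 exceeded that in HS1 by 3.60, that in HS7 by 1.77 and that in HS14 by 2.86 on the log2 scale. For *Fbn2* the same differences were 4.41, 2.43 and 3.61. These differences between times were not tested, since the genes were chosen for their changes in these libraries. The share of all genes whose libraries separate in this way was not computed, so the separation is a description only. With 2 libraries a group, no library could be checked for standing apart from its group.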

How the results depend on the processing

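Of 325 recomputed values, 322 kept their direction and their side of the threshold (counts within 1.5 times), including all fold changes and ratios of the fibrillins. Over all alternatives the log2 fold change against Control ran from -2.42 to -2.33 for *Fbn1* and from -2.33 to -2.29 for *Fbn2* in HS1, and from 1.19 to 1.25 and from 1.90 to 2.30 in HS3. In HS7 it ran from -0.66 to -0.44 and from -0.49 to -0.17. The log2 ratio of *Fbn2* to *Fbn1* in HS3 ran from 0.67 to 1.08. The 3 exceptions were counts over the listed genes when a library was left out: those lower in HS3 than in Control ran from 1 to 2 (1 without Control replicate 2, when *Bmp6* was lost), and those higher in HS14 than in HS7 from 0 to 1 (0 without either HS14 library, when *Dcn* was lost). The listed genes lower in HS14 than in HS7 also became fewer without either HS14 library, within the 1.5 times allowed. Fewer samples entered those fits. Same-numbered replicates did not deviate together (correlations of -0.0165 to 0.0434). No common effect of the replicate number was thus seen, though a pairing with little effect would not show in this check. With the replicate block the counts of the exceptions stayed at 2 and 1. RLE factors moved the median of all genes by at most 0.00757 (log2). The ratio per kilobase of transcript was not run for want of lengths. Depth limits *Fbn2* in HS1, with 41 and 44 counts.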
